A study of Mus musculus with 4 samples.

Results

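The promoters of the 6 C/EBP family genes, Cebpa, Cebpb, Cebpd, Cebpe, Cebpg and Ddit3, took part in 182 of the 237102 H3K4me3 HiChIP interactions listed for bone marrow-derived macrophages (BMDMs). An interaction is a pair of 5-kb bins of the mouse genome (build mm10) ligated together more often than a background model expects, and it was assigned to a gene when either bin held, or lay within 2500 bp of, an annotated transcription start site (TSS) of that gene. Under the narrower rule, with the TSS inside the bin, 102 interactions remained. These 6 genes are a small part of the 20696 protein-coding autosomal genes, whose promoters took part in 182854 interactions under the wider rule and 148313 under the narrower one.

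C/EBP proteins bind DNA as dimers through a basic region and a leucine zipper (bZIP), and can pair with each other and with other bZIP proteins. C/EBPα directs commitment to the myeloid lineage, C/EBPβ and C/EBPδ are induced by inflammatory signals and act in macrophage gene expression, and C/EBPε is required for late granulocyte maturation. C/EBPγ lacks the activation domains of the others. Ddit3 encodes CHOP, the stress-induced member, which pairs with other C/EBP proteins and is controlled by ATF4 in the integrated stress response.

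HiChIP joins chromatin that is close in the nucleus and then enriches the joined fragments for a histone mark, here H3K4me3, which marks active and poised promoters. All cells were BMDMs from C57BL/6J mice, grown for 7 days from bone marrow in medium with M-CSF, with no genetic change named. The basal group was left untreated (2 samples) and the IL-4 group received 20 ng/mL IL-4 for 24 h (2 samples). The list merges all 4 samples, so it gives 1 value per interaction, with no comparison of basal with IL-4 cells and no replicate error. Library depth is unknown here, and the intervals below are 95% exact Poisson intervals on the observed count of read pairs (reads, for short) divided by the expected count, which cover counting error only. A promoter without H3K4me3 has few ways into such a list, because at least 1 bin of a pair must carry an H3K4me3 peak, so a low count of interactions is not a measure of low contact.

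The 300 bases around each start site are shown first, because the start sites define the promoters. The contacts were assigned by 5-kb bins, and 40 of the 67 for Cebpb, 14 of the 22 for Cebpg and 20 of the 27 for Ddit3 came from the neighbouring bin, which does not hold the gene's TSS. RefSeq promoters (250 bases before to 50 after the RefSeq start, GRCm38) were matched for 4 of the 6 genes, and Cebpd and Cebpe had no entry. Capitals mark matches, on either strand, to TTGCNNAA (a C/EBP core), TGATGCAA (a composite C/EBP-ATF element), AGGAAGT (a PU.1 element) and TGANTCA (an AP-1 element).
Cebpa, chr7:35119043-35119342, plus strand: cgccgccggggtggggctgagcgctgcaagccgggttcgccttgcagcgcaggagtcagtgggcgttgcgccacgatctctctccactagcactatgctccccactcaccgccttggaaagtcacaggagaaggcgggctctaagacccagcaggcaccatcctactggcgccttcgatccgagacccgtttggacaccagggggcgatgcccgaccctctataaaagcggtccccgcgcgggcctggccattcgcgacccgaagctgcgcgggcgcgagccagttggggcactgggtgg
Cebpb, chr2:167688665-167688964, plus strand: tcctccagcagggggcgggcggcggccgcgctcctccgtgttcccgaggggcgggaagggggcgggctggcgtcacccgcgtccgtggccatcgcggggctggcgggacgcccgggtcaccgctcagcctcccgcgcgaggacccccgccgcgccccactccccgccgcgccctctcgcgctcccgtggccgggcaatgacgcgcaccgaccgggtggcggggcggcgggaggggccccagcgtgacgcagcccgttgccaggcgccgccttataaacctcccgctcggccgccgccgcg
Cebpg, chr7:35056517-35056816, minus strand: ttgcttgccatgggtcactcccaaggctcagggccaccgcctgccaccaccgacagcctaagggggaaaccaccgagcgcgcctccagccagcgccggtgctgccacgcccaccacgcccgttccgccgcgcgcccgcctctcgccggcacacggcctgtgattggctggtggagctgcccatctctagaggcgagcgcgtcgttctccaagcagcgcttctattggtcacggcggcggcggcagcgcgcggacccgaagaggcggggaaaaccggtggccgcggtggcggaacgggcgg
Ddit3, chr10:127290543-127290842, plus strand: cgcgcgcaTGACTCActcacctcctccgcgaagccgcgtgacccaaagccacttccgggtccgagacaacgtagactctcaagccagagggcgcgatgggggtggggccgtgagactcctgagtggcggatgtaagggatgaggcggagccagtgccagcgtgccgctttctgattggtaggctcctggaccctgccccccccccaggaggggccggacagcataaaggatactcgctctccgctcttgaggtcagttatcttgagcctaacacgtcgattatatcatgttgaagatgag
The 4 promoters shared no element of this set. Only the Ddit3 window held a match, an AP-1 element written TGACTCA at position -242 from the RefSeq start, and 7.84% of the 31396 RefSeq promoters of this length held TGANTCA. No match to TTGCNNAA was found in the 4 windows (10.9% of all promoters held one), nor to TGATGCAA (0.828%) or AGGAAGT (9.37%). These matches describe letters and are not binding sites.

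All 6 genes had at least 1 interaction at both widths, where 63.2% of all protein-coding genes did under the narrow rule and 70.4% under the wide rule. The median over the 6 genes was 24.5 interactions under the wide rule and 10.5 under the narrow rule, beside medians of 4 and 2 over all genes and of 10 and 7 over genes with any. Cebpb had the most, with 67 interactions under the wide rule and 27 under the narrow rule, and 97.7% of all genes had fewer under the wide rule. Cebpd followed with 47 and 43 (93.9% of genes had fewer) and led the family when only the bin with the TSS was counted. Ddit3 had 27 and 7 (84.0%), Cebpg 22 and 8 (79.6%), Cebpe 14 and 13 (70.4%) and Cebpa 7 and 4 (57.6%). Cebpa, the gene of the founding member, was therefore below the median of genes with any interaction at both widths. The order changed with the width for Ddit3 and Cebpg, which stood above Cebpe under the wide rule and below it under the narrow rule. The deposited list also groups pairs into clusters, and the 67 Cebpb interactions fell in 3 of them. When only the pair of lowest FDR in each cluster was kept, Cebpb no longer led. Ddit3 then had 7, Cebpd 5, Cebpa 4, Cebpb 3, Cebpg 3 and Cebpe 0.

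**Figure D1:**
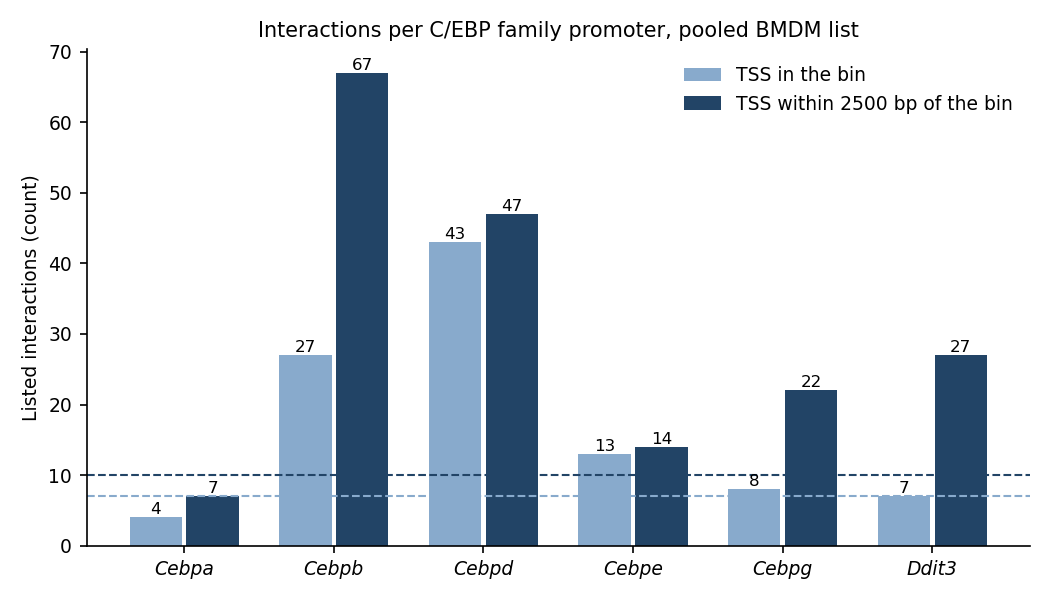
Listed interactions per C/EBP family gene (count, bars from 0) under the narrow rule (light) and the wide rule (dark). Dashed lines mark the median over all protein-coding genes with any interaction, 7 and 10. Cebpb rises from 27 to 67 between the rules, whereas Cebpd moves from 43 to 47.

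For each interaction the ratio of the observed to the expected count was read against all listed interactions at exactly the same bin distance, since the ratio rises with distance in this list. The median percentile over the 182 interactions was 62.6, and 108 of them (59.3%, 95% Wilson interval 52.1 to 66.2) lay above the 50th percentile. Neighbouring bins of 1 promoter share reads and chromatin and are not independent, so this interval is too narrow. The genes differed widely. The median percentile was 76.4 for Cebpe, 75.3 for Cebpd, 65.8 for Cebpb, 50.4 for Cebpg, 43.1 for Cebpa and 17.8 for Ddit3. Ddit3 thus had more interactions than Cebpe under the wide rule, yet 6 of its 27 lay above the 50th percentile, against 11 of 14 for Cebpe.

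**Figure D2:**
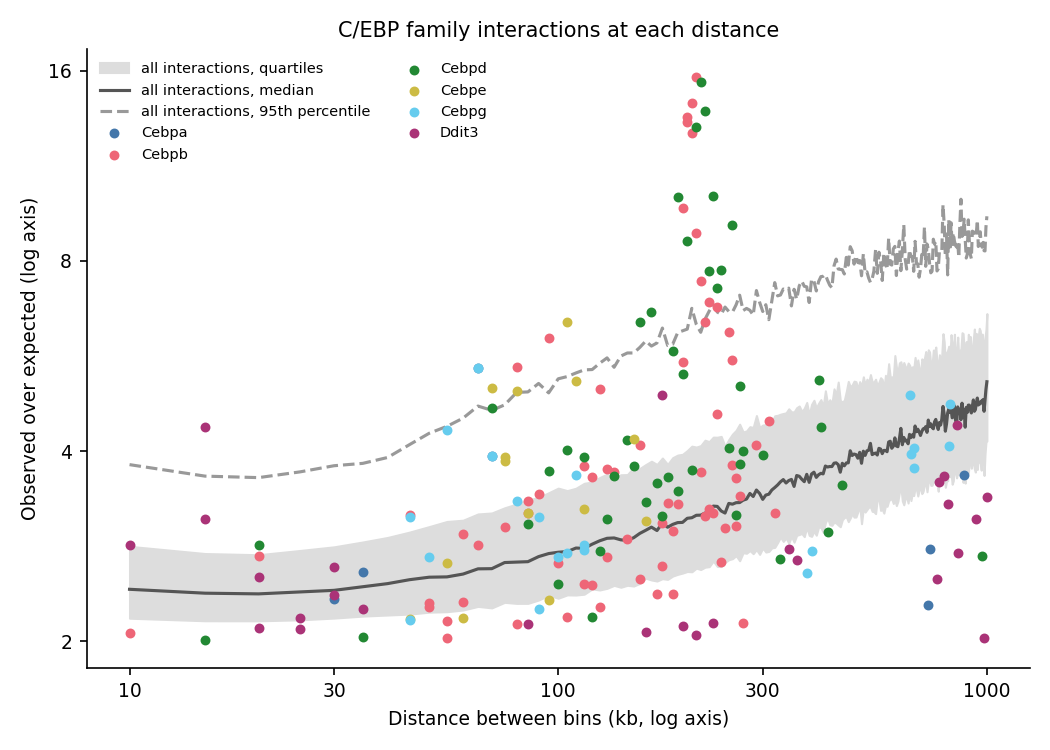
Observed over expected count (log axis) against the distance between bins (kb, log axis) for every interaction of the 6 genes (coloured points), over the median, quartiles and 95th percentile of all listed interactions at each distance. Cebpb and Cebpd points reach 15.6 and 15.3 near 210 kb, and most Ddit3 points lie under the median line.

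A ratio of 10 or more was reached by 3.79% of all protein-coding genes, and in the C/EBP family by Cebpb and Cebpd, with 10 interactions between them. Both genes sent these contacts downstream to a stretch about 200 kb from the TSS, but the stretches differed in annotation, base composition and in how many other contacts they had.

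Cebpb (chr2:167688915-167690418, plus strand) is a single-exon gene. Its promoter bins were chr2:167685001-167690000, which holds the TSS and had 27 interactions, and chr2:167690001-167695000, with 40, and no other protein-coding TSS lay in either. All 67 interactions ran downstream. Among genes with at least 10 interactions, 6.79% had all of them on 1 side, and of the 5 family members with at least 10, Cebpb and Cebpe did. The nearest protein-coding TSS, that of Tmem189, lies 27.4 kb upstream and no Cebpb interaction reached it.

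The highest ratio of the family joined the Cebpb TSS bin to chr2:167895001-167900000, 210 kb away. It had 113 observed reads where 7.24 were expected, a ratio of 15.6 (12.9 to 18.8), and ranked at percentile 99.9 at its distance. The neighbouring promoter bin reached the same partner with 159 observed reads and a ratio of 14.2 (12.1 to 16.6). The adjoining bins followed: chr2:167885001-167890000 had 110 reads and a ratio of 13.5 (11.1 to 16.3) with the TSS bin, and chr2:167890001-167895000 had 119 reads and a ratio of 13.3 (11.0 to 15.9) with the neighbouring bin. The intervals of these 3 bins overlap, so their order is not resolved. They are intergenic, and the nearest TSS, that of Ptpn1, is 32.3 to 42.3 kb away.

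This peak sat within a block of 21 touching bins, chr2:167860001-167965000, that lay 171 to 276 kb downstream of the Cebpb TSS and held 33 of the 67 interactions, with 1533 observed and 264 expected reads in sum. The 2 promoter bins shared 21 of their partners. By read count the largest interactions were close to the gene, with 208 reads at 10 kb and 162 reads at 20 kb, both in bins of the noncoding gene A530013C23Rik, and their ratios were 2.07 and 2.73. The 159 reads at 205 kb came close to these counts, and from the TSS bin alone the interaction with the highest ratio also had the highest count, 113 reads. The 67 interactions reached 46 distinct partner bins. Counted by interaction, the partner was intergenic in 56, intronic in 6 and exonic in 3, and held a TSS in 2.

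The 2 promoters that Cebpb contacted were Ptpn1 at 245 kb (48 reads, ratio 3.02) and Ripor3 at 320 kb (19 reads, ratio 3.19). Ptpn1 encodes the tyrosine phosphatase PTP1B, and its ratio with Cebpb was close to the median of 3.24 over all Cebpb interactions. Cebpb shared the most partner bins, by the Jaccard index (shared bins over the union), with Ube2v1 (12 bins, 0.222) and then with Ptpn1 (9 bins, 0.130). Gm20431 and Tmem189 followed with 6 shared partners each (0.125). Their start sites nearest to Cebpb lie in the same 5-kb bin, and each had 8 partner bins and 12 interactions. They are therefore not 2 independent cases. The Ube2v1 promoter and the promoter region common to Tmem189 and Gm20431 also contacted the 3 strongest bins.

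**Figure D3:**
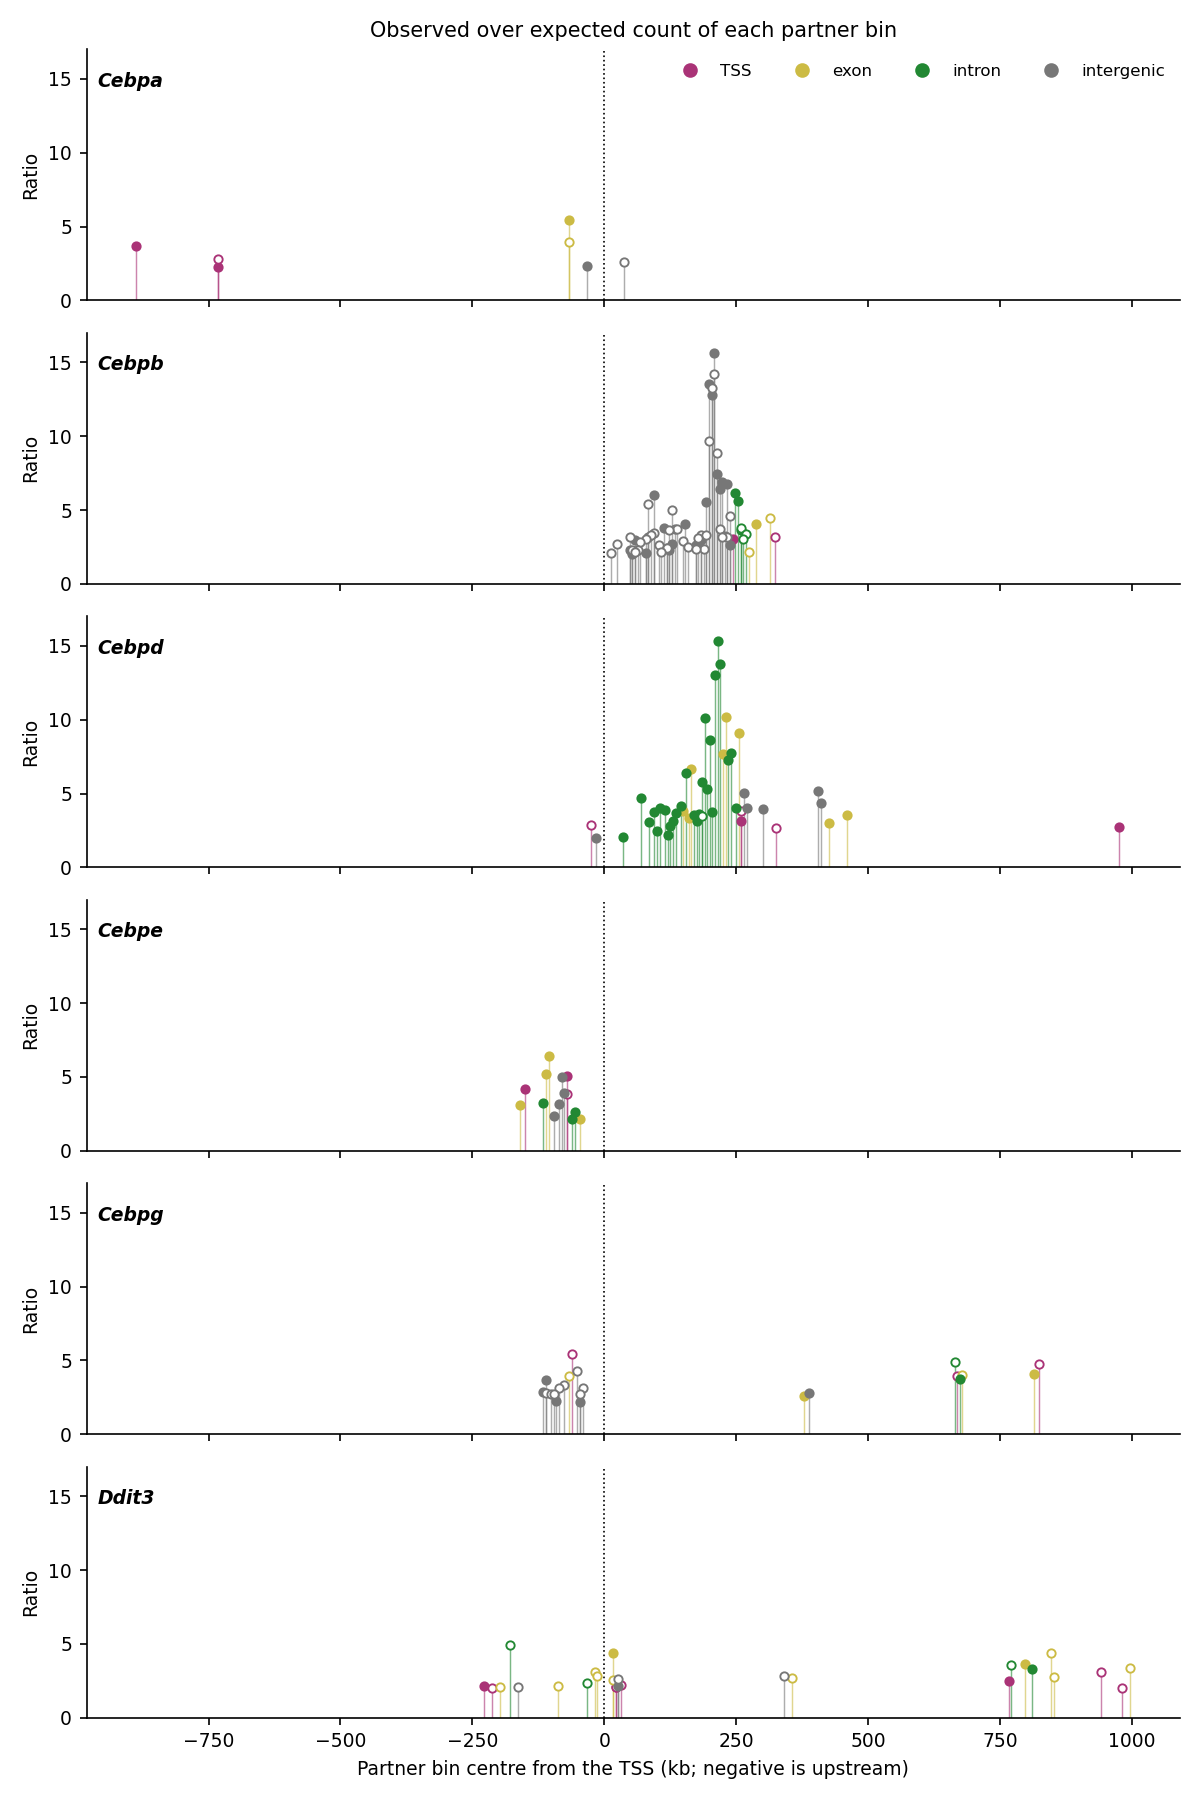
Ratio of observed to expected count (vertical axis) for each interaction, placed by the centre of the partner bin relative to the TSS (kb, negative is upstream) and coloured by what the partner bin holds. Filled points come from the bin with the TSS and open points from the neighbouring bin. Cebpb and Cebpd rise to ratios above 15 about 200 kb downstream, Cebpe has upstream partners only, and Cebpa, Cebpg and Ddit3 stay under 6.

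Cebpd (chr16:15887286-15891031, plus strand) had 43 interactions from its TSS bin, chr16:15885001-15890000, and 4 from the bin before it. The adjacent bin on the far side begins 2715 bp from the TSS, just outside the wide rule, and had 18 more. Of the 47 interactions, 45 ran downstream and 2 upstream. Its partners, 45 distinct bins, lay mostly within Spidr, a gene with a role in DNA repair. Counted by interaction, the partner was intronic in 28, exonic in 8 and intergenic in 6, and held a TSS in 5.

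The strongest Cebpd partner, chr16:16100001-16105000 in a Spidr intron, lay 215 kb downstream and had 165 reads where 10.8 were expected, a ratio of 15.3 (13.1 to 17.9). The next bin, chr16:16105001-16110000, had 150 reads and a ratio of 13.8 (11.7 to 16.2). On the other side chr16:16095001-16100000 had 42 reads and a ratio of 13.0 (9.40 to 17.6), with only 3.22 reads expected. The 3 intervals overlap. A block of 20 bins, chr16:16030001-16130000, 143 to 243 kb downstream, held 21 interactions with 1374 observed and 196 expected reads in sum.

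The largest Cebpd count, 311 reads, was with the Mzt2 promoter bin 20 kb upstream at a ratio of 2.85, and the next, 218 reads, was with a Spidr intron 70 kb downstream at a ratio of 4.68. Mzt2 encodes a protein of the γ-tubulin complex. The other promoters in the set were Spidr at 260 kb (69 reads, ratio 3.17), Pkp2 at 330 kb (22 reads, 2.70) and Igll1 at 975 kb (11 reads, 2.73). The contacts with the Mzt2 and Pkp2 promoters came only from the bin before the TSS bin, so the narrow rule leaves them out. From the TSS bin the largest count was the 218 reads. Mzt2 shared 24 partner bins with Cebpd (Jaccard index 0.387), Yars2 shared 5 (0.0758) and Pkp2 shared 3 (0.0423).

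The strongest partner bins of the 2 genes had different standing in the whole list. The 3 Cebpb bins had 33, 36 and 26 listed interactions with any bin, whereas the 3 Cebpd bins had 4, 5 and 3. Over the 107109 partner bins of all protein-coding promoters the median was 2, and 3.56% had 20 or more. The median GC content was 51.8% over the 46 Cebpb partner bins and 39.4% over the 45 of Cebpd, beside 44.3% over all promoters' partner bins. The median number of CpG dinucleotides per bin was 68 for Cebpb and 25 for Cebpd, and that of MboI sites (GATC), where the ligation ends are cut, was 12 and 14.

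**Figure D4:**
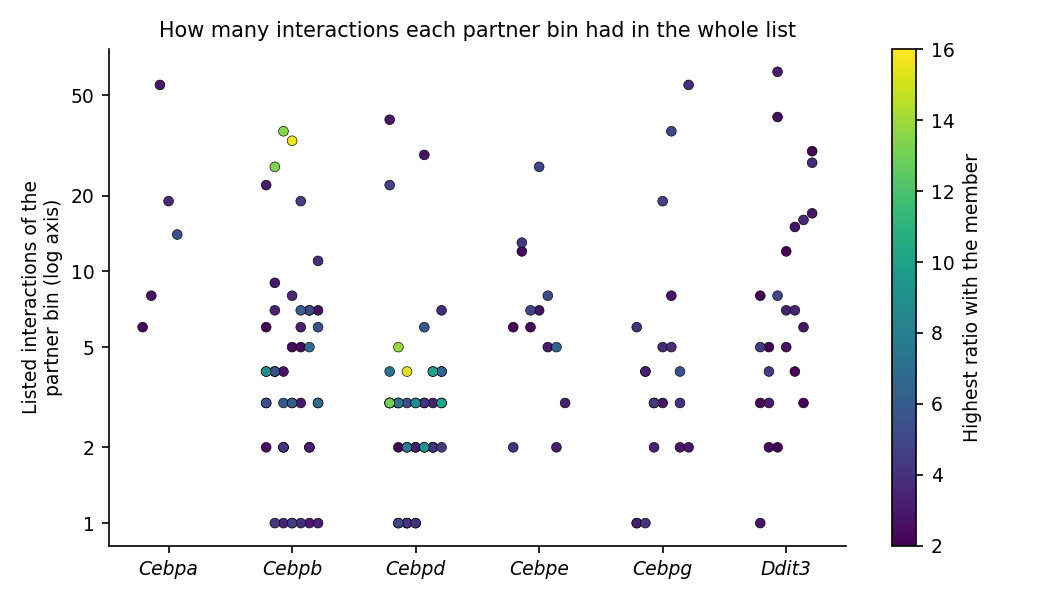
Number of listed interactions of each partner bin in the whole list (log axis), by C/EBP family gene, coloured by its highest ratio with that gene. The strongest Cebpb bins (yellow and light green) have 26 to 36 interactions, and the strongest Cebpd bins 3 to 5.

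Cebpe (chr14:54710360-54712174, minus strand) had 13 interactions from its TSS bin, chr14:54710001-54715000, and 1 from the bin beside it. All 14 ran upstream, over 45 to 160 kb, and belonged to 1 cluster in the deposited list. Its highest ratio was with chr14:54815001-54820000, in an exon bin of Rnf212b 105 kb away, with 45 reads where 7.04 were expected, a ratio of 6.39 (4.66 to 8.55). The next Rnf212b bin had 35 reads and a ratio of 5.17 (3.60 to 7.19). The Slc7a8 promoter bin, chr14:54780001-54785000, had the highest counts, 179 reads from the TSS bin (ratio 5.04, 4.33 to 5.83) and 110 from its neighbour (3.86). Slc7a8 encodes an amino acid transporter and Homez, the other promoter contacted, a homeodomain protein (54 reads, ratio 4.18, 150 kb).

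A large part of the contact at this locus fell just outside the rule. The bin chr14:54715001-54720000 begins 2827 bp upstream of the Cebpe TSS and had 23 interactions, among them one with the same Slc7a8 promoter bin with 324 reads where 27.3 were expected, a ratio of 11.9. Counted with a width of 5000 bp, Cebpe had 37 interactions, above Ddit3 with 27 and Cebpg with 24. At that width 35 ran upstream and 2 downstream, in 4 clusters, so the single side and single cluster held only for the narrower widths. Cebpe shared 7 partner bins with Acin1 (Jaccard index 0.179), 3 with 1700123O20Rik (0.143) and 5 with Slc7a8 (0.135).

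Cebpa and Cebpg are neighbours on chromosome 7, with start sites 62.7 kb apart and transcribed away from each other. They gave the only interactions that joined 2 promoters of the family, 2 in number. Both ran from chr7:35050001-35055000, which lies in the Cebpg gene and beside its TSS bin, to the 2 promoter bins of Cebpa. The one to the Cebpa TSS bin, chr7:35115001-35120000, had 232 reads where 42.8 were expected, a ratio of 5.42 (4.74 to 6.16), at percentile 97.4 for 65 kb. The one to the adjacent bin had 153 reads and a ratio of 3.93 (3.33 to 4.60). Under the narrow rule no interaction joined the 2 genes, because the Cebpg TSS bin itself was not listed with either Cebpa bin.

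Under the wide rule both genes also contacted the same distant promoters. For Cebpg these contacts came from its gene-body bin, chr7:35050001-35055000, and its TSS bin was listed with no partner bin that held a TSS. Lsm14a, which encodes an RNA-binding protein of processing bodies, was reached by Cebpa with 45 and 38 reads (ratios 2.80 and 2.28) and by Cebpg with 22 reads (ratio 3.95). At equal distance these stood low, at percentiles 5.49 and 0.767 for Cebpa and 43.6 for Cebpg. Gpi1, the glycolytic enzyme glucose-6-phosphate isomerase, was reached by Cebpa with 26 reads (ratio 3.67, 885 kb) and by Cebpg with 12 reads (ratio 4.74, 820 kb). Their percentiles at equal distance were 18.9 and 53.9. The Lsm14a bin is itself a busy bin, with 55 listed interactions.

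Cebpa (chr7:35119293-35121928, plus strand) had few partners, 5 bins in all. Beside Cebpg, Lsm14a and Gpi1 they were chr7:35085001-35090000, 30 kb upstream, with 194 reads at a ratio of 2.33, and chr7:35155001-35160000, with 94 reads at a ratio of 2.57 (2.08 to 3.15). The latter is its only downstream partner and spans 35.7 to 40.7 kb from the TSS. It stood at percentile 58.9 at equal distance. It was listed only with the promoter bin that does not hold the Cebpa TSS, so under the narrow rule Cebpa had no downstream partner. A myeloid enhancer downstream of Cebpa is known from other work, and whether the partner bin chr7:35155001-35160000 holds it was not tested. By Jaccard index the most similar genes were Kctd15 (0.2), Wtip (0.167) and Gpatch1 (0.143), each on 1 shared bin.

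Cebpg (chr7:35046422-35056573, minus strand) had 8 interactions from its TSS bin, chr7:35055001-35060000, and 14 from the bin of its gene body. Its upstream side, with 14 interactions, faces Cebpa, and the 8 downstream ones lay 380 to 820 kb away. After the contact with Cebpa its highest ratios were with an Lsm14a intron at 660 kb (15 reads, ratio 4.91, 2.75 to 8.10) and with the Gpi1 promoter. Both came from the gene-body bin, rest on few reads, with wide intervals, and stood at percentiles 66.6 and 53.9 at equal distance. An intergenic bin 55 kb upstream, 9.29 kb short of the Cebpa TSS, had 57 reads and a ratio of 4.32 (3.27 to 5.59), also with the gene-body bin. That lower ratio stood at percentile 94.5 for its distance. Cebpg shared 14 partner bins with Lsm14a (Jaccard index 0.169), 3 with Gpatch1 (0.15) and 3 with Cebpa (0.136).

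Ddit3 (chr10:127290774-127296288, plus strand) shares its promoter region with Mbd6, a methyl-CpG-binding domain gene on the other strand whose TSS is 1756 bp away. The bin chr10:127290001-127295000 holds the Ddit3 TSS and had 7 interactions, and the bin chr10:127285001-127290000 holds the Mbd6 TSS and had 20. Under the wide rule the 2 genes had the same bins and the same 27 interactions (Jaccard index 1), so contacts of one cannot be told apart from contacts of the other.

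The Ddit3 TSS bin had its highest ratio with chr10:127305001-127310000, in a Mars exon 15 kb downstream, with 434 reads where 99.5 were expected, a ratio of 4.36 (3.96 to 4.79) and the lowest FDR of the family (1.02e-131). Its largest count, 561 reads, was with the Mars promoter bin at 20 kb, at a ratio of 2.10 (1.93 to 2.28). Mars encodes methionyl-tRNA synthetase. From the Mbd6 bin the highest ratios were with an Os9 intron 175 kb upstream, chr10:127110001-127115000 (65 reads, ratio 4.91, 3.79 to 6.26), and with an Rbms2 exon 850 kb downstream (16 reads, 4.39, 2.51 to 7.14). At equal distance the Os9 pair stood at percentile 88.5 and the Rbms2 pair at 49.3. Os9 encodes a lectin of endoplasmic reticulum quality control.

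Promoters and exons made up most of the partners of this locus. Of the 27 interactions, 8 had a partner bin with a TSS, 11 an exon, 4 an intron and 4 were intergenic. The promoters from the Ddit3 TSS bin were Mars, Cdk4 and March9 in a common bin (74 reads, ratio 2.14, 230 kb) and Ptges3 (22 reads, 2.51, 765 kb). Those from the Mbd6 bin were Mars again, Arhgap9 (297 reads, 2.25, 35 kb), Agap2 (18 reads, 2.05, 210 kb), Timeless (19 reads, 3.13, 945 kb) and Stat2 (24 reads, 2.02, 985 kb). The last ranked at percentile 0.238 for its distance, and a bin in a Stat6 exon at 360 kb had 18 reads and a ratio of 2.69. After Mbd6, Ddit3 was most similar to Rbms2 (0.167) and Spryd4 (0.159).

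Over the family, 24 of 184 gene-interaction pairs (13.0%, Wilson interval 8.92 to 18.7) had a protein-coding TSS in the partner bin. Over all protein-coding genes the share was 17.8% (17.7 to 18.0). The intervals overlap, but they treat the pairs as independent and so are too narrow. Some partner bins were reached from both bins of a gene, and the 2 interactions between Cebpa and Cebpg count under both genes. The median distance was 162.5 kb in the family and 190 kb over all genes, and the median ratio 3.32 and 2.99. Partner bins of 1 gene were also listed with each other. Of the pairs of Cebpb partner bins that lay 10 kb to 1 Mb apart, 59 of 999 (5.91%) were listed, and for Cebpd 43 of 960 (4.48%). The share was 9.72% for Cebpe (7 of 72), 11.7% for Cebpg (21 of 180), 12.4% for Ddit3 (29 of 233) and 50% for Cebpa (5 of 10), and the same share was not computed for other promoters.

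Sequence in the partner bins is shown for the partner of highest ratio under the wide rule of Cebpb, Cebpd, Cebpe and Ddit3 and for the downstream partner of Cebpa, because these carry the distal contacts described above. Each run is a 100-base stretch of the bin that no other stretch exceeded in matches, from RefSeq's GRCm38 sequence. Matches to the 4 elements listed above are in capitals. Ties between stretches were broken by centring the match and then by taking the first.
Cebpb, chr2:167895268-167895367, plus strand: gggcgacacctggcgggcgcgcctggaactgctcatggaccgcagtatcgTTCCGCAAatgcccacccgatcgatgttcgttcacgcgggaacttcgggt
Cebpd, chr16:16101567-16101666, plus strand: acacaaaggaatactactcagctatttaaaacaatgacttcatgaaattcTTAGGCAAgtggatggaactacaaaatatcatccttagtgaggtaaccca
Cebpe, chr14:54815544-54815643, plus strand: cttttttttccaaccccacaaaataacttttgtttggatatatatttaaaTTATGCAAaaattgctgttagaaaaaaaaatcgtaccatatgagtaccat
Cebpa, chr7:35155563-35155662, plus strand: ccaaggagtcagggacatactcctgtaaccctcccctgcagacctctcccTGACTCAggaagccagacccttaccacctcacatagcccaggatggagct
Ddit3, chr10:127114393-127114492, plus strand: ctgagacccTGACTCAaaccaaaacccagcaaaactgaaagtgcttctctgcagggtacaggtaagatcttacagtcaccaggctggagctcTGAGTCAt
The Ddit3 stretch, in the Os9 intron, comes from the partner of the bin with the Mbd6 TSS, and it held 2 AP-1 elements (TGACTCA and TGAGTCA). Its whole bin held 6 AP-1 elements, 1 C/EBP core and 2 PU.1 elements. Each of the other stretches held 1 match, a C/EBP core for Cebpb, Cebpd and Cebpe and an AP-1 element for Cebpa. With 1 match the choice among tied stretches does not rank that element above others in its bin. The Cebpb and Cebpd bins each held 2 C/EBP cores, 2 PU.1 elements and 1 AP-1 element. The Cebpe bin held 3 C/EBP cores, 1 C/EBP-ATF element and 3 PU.1 elements, and the Cebpa bin 1 C/EBP core, 2 PU.1 elements and 1 AP-1 element. Such matches are common at this bin size. Neighbouring partner bins are not independent, so the Wilson intervals on the shares that follow are too narrow. Of the 150 distinct partner bins of the family, 135 (90.0%, 84.2 to 93.8) held TTGCNNAA on either strand, beside 86.8% of all promoters' partner bins and 78.7% (71.6 to 84.4) of 155 bins mirrored to the other side of the same promoters. The full palindrome TTGCGCAA, which TTGCNNAA includes, was found in 0 of the 150 bins (upper Wilson bound 2.50%), in 0 of the mirrored bins and in 0.549% of all promoters' partner bins. For the other elements the share is given beside that of all promoters' partner bins and then that of the mirrored bins. It was 15.3% beside 12.5% and 10.3% for TGATGCAA, and 71.3% beside 72.5% and 69.0% for AGGAAGT. It was 70.7% beside 78.2% and 78.1% for TGANTCA, and 72.0% beside 74.6% and 69.0% for the STAT6 element (TTC and GAA with 4 free bases between them). For AGGAAGT and the STAT6 element the family share thus lay between the 2 references.

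Genes that work with the C/EBP family were counted in the same way from lists. Beside them stand the shares of 63.2% (narrow) and 70.4% (wide) and the wide median of 4 over all protein-coding genes. Counts in brackets after gene names are under the wide rule. Of 21 other bZIP genes, including dimer partners, 19 had an interaction under the narrow rule and 20 under the wide rule, with a wide median of 18, and Jun (246), Maf (209) and Atf4 (98) had the most. Nrl was at 0. Of 23 genes that act on C/EBP proteins or their RNA, 21 had an interaction at either width (wide median 13), led by Runx1 (181), Creb1 (107) and Fbxw7 (84), with Klf5 and Ppargc1a at 0. Of 29 genes of the integrated stress response around Ddit3, 28 had one (wide median 26), led by Bcl2l11 (151), Atf4 (98) and Sesn2 (75), with Vldlr at 0.

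Known myeloid and inflammatory targets of C/EBP factors had a lower median than these lists. Of 37, 31 had an interaction under the narrow rule and 34 under the wide rule, with a wide median of 9 over all 37, beside 4 over all genes. Stat3 (29), Mrc1 (26) and Elane (20) led under the wide rule, but Mrc1 and Elane had only 4 and 2 under the narrow rule. There Stat3 (25), Ccl2 (18) and Csf1r (14) led. Ltf, Msr1 and Ptgs2 were at 0 at both widths. As a check of the label, all 11 macrophage marker genes had an interaction under the wide rule, beside 70.4% of all genes. So did all 6 T cell genes, all 5 B cell genes, 8 of 9 neutrophil genes and 3 of 5 stromal genes. Having an interaction therefore did not set macrophage genes apart. The wide medians were 18 for macrophage, 3 for T cell, 4 for B cell, 3 for neutrophil and 4 for stromal genes. Single genes crossed this order: Lck (34), Cd28 (27) and Pecam1 (27) lay above the macrophage median, and Itgam (11) and Cd68 (7) were among those below it.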

How the data were processed

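H3K4me3 HiChIP had been done on 4 BMDM samples (2 basal, 2 IL-4) with MboI. The authors merged all samples, mapped reads to mm10 and called bin pairs with MAPS, and the submitters' processing notes name Bowtie2 and bedtools. The deposited table gives, for each pair of 5-kb bins, the observed read count, the expected count (a signal from the authors' background model), the FDR (an adjusted p-value) and cluster labels and sizes (other values set by the authors). All 237102 pairs had a count of at least 5, a ratio of at least 2, an FDR of at most 0.00999979 and a distance of 10 kb to 1 Mb on 19 autosomes.

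Start sites were those of protein-coding genes in the GENCODE M21 basic annotation (GRCm38, the same build as mm10), with genes counted by symbol. Each gene's interactions, ratios, distances, percentiles at equal bin distance and partner annotation (TSS, exon, intron or intergenic, in that order) were computed in Python 3.11.15 with numpy 2.4.6, pandas 2.3.3 and scipy 1.17.1, and figures were drawn with matplotlib 3.10.9. The counting was tested on simulated data. Motifs were searched on both strands. No test between samples was possible, and shares carry 95% Wilson intervals.

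Members and lists were chosen with earlier results of these data known. Named were the 3 partner bins of highest ratio and 2 of highest count per gene, promoters in partner bins, the 3 genes sharing most partner bins, contacts between members and the 3 leading genes of each list. Bins just outside the rule, the next intergenic partner of Cebpg, the Stat6 bin and the comparison of GC content and interactions per partner bin were chosen after their values were seen. Ero1a and Trac were not found by symbol. Alternatives covered promoter width, FDR, count, ratio, clusters, distance and motif.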

Additional observations from a re-analysis of the deposited data

How the results depend on the processing

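All 6 genes kept at least 1 interaction under every alternative except 1 interaction per cluster (that of lowest FDR), where 5 did and Cebpe, whose cluster is led by another pair, had 0. The share of all protein-coding genes with an interaction was computed only for the narrow and wide rules. Without it, the number of members kept under the other alternatives is not a result about the family. The number of family interactions moved from 182 to 102 with the TSS in the bin, to 114 with an FDR under 1e-06, to 56 with a ratio of at least 4 and to 21 with 1 interaction per cluster. In the same order the median per gene moved from 24.5 to 10.5, 10, 5.5 and 3.5. Medians over all genes were not computed for the FDR, ratio and cluster alternatives. A width of 5000 bp gave 231 interactions and a median of 32, with Cebpe moving from 14 to 37. A count of at least 10, leaving out singletons, the outermost TSS and a distance over 50 kb left the total between 158 and 182. The median percentile at equal distance was 62.6, 62.9 within 10% of the distance and 65.5 against promoter interactions only. The share of partner bins with the C/EBP palindrome was 0.549 percentage points below that of all promoters' partner bins (-0.549), and the difference was 7.44 for the shorter core TGCGCA and 3.17 for TTGCNNAA, which was added after seeing the data. No paired analysis was possible because the list is merged over all 4 samples, and for the same reason no replicate could be left out. Depth is unknown. The family's interactions beyond 500 kb rest on 10 to 45 reads, and some nearer ones rest on as few, down to 9 reads at 190 kb for Cebpd.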
